A study of Mus musculus with 8 samples.

Results

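The genes described here encode the proteins of the cytosolic ribosome: the RPL genes of the large subunit and the RPS genes of the small subunit. They were chosen by symbol, as RPL or RPS followed by a number, RPLP0 to RPLP2 or RPSA, and by a sum of at least 16 counts over all 8 libraries. Of 33514 rows in the count table, 86 carried such a symbol (52 RPL and 34 RPS), and 28 reached that sum (17 RPL and 11 RPS). The sum over both groups chose the genes, so how strongly they were counted is given as a description without a test.

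RNA was measured in cultured adult cardiomyocytes, the contractile cells of the heart, from C57BL/6 mice. The 4 siN libraries came from cells given a negative-control siRNA and the 4 siHoxa5 libraries from cells given an siRNA against Hoxa5, a homeobox transcription factor. Cells of both groups were then treated with 100 µM phenylephrine for 24 h, starting 24 h after transfection. Phenylephrine is an agonist of alpha1-adrenergic receptors that induces hypertrophic growth of cardiomyocytes, so no library shows untreated cells. The comparison asks how silencing Hoxa5 changed RNA levels in stimulated cardiomyocytes. Whether the 4 libraries per group stem from separate mice or dishes is not given, and p-values then measure only the spread between these libraries, which may be technical.

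A ribosome holds one copy of nearly every ribosomal protein, and cells balance the supply of these proteins with that of ribosomal RNA. In mammals nearly all of their mRNAs begin with a tract of pyrimidines, the terminal oligopyrimidine or TOP motif, through which mTORC1 and LARP1 control their translation. Growing cardiomyocytes make more ribosomes, and this supply is a long-studied part of cardiac hypertrophy.

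The totals were 646832 ± 10946 counts (SD, n = 4) in siN and 592601 ± 29616 (SD, n = 4) in siHoxa5. The targeted gene HOXA5 had 8 counts over the siN libraries (0 to 3 per library) and 9 over the siHoxa5 libraries (1 to 4), so its silencing was not detectable at this depth. On the first principal component, which held 25.8% of the variance, siHoxa5 libraries 2 and 4 stood furthest from the siN libraries, so results are also given without them. Summed cardiomyocyte markers were 74065 to 78726 CPM in siN and 91749 to 95872 CPM in siHoxa5 (counts per 1000000 of the library, unscaled for these sums), with 5 of 12 higher, 1 lower and TNNI3, MYL2, MYL3 and PLN at 0 in all libraries. Summed fibroblast markers were 10158 to 10845 CPM in siN and 10741 to 12641 CPM in siHoxa5, with 1 of 9 higher and LUM and TCF21 at 0. Summed endothelial markers reached at most 32.5 CPM in any library, smooth muscle and pericyte markers 29.1 CPM and immune markers 1.79 CPM, with 5 of 7, 3 of 6 and 4 of 6 such genes in the table at 0. Markers of proliferating cells summed to 102 to 111 CPM in siN and 127 to 171 CPM in siHoxa5, with 1 of 4 higher and CDK1 at 0. The part of these differences in the changes of ribosomal protein genes was not tested.

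Because TOP mRNAs are defined by the bases at their start, the 60 bases around the annotated start (40 before and 20 after it) are shown for 5 of the 6 genes that fell and for RPS27, the RPS gene with the highest CPM. They are read 5′ to 3′ on the gene's strand from RefSeq sequence of GRCm38.p6. Capitals mark the longest run of C and T.
RPL31, chr1:39367811-39367870, plus strand: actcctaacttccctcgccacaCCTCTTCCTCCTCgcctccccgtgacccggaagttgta
RPL15, chr14:18270967-18271026, minus strand: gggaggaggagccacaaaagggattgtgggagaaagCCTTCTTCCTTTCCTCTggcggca
RPL4, chr9:64173347-64173406, plus strand: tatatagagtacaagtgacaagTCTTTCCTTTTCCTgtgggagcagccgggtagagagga
RPL37, chr15:5116573-5116632, plus strand: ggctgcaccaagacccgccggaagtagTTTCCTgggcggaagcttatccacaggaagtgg
RPLP0, chr5:115559427-115559486, plus strand: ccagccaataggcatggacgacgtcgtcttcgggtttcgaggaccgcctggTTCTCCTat
RPS27, chr3:90213629-90213688, minus strand: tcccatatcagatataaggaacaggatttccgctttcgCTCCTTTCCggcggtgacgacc
The run was 13 bases in RPL31, 17 in RPL15, 14 in RPL4, 6 in RPL37, 7 in RPLP0 and 9 in RPS27. The runs of RPL15 and RPS27 span the annotated start. Those of RPL31, RPL4 and RPL37 end before it, and that of RPLP0 begins after it. This start is RefSeq's. In the GENCODE M21 annotation, RPL31 and RPL4 begin within their runs, at 39367842 and 64173375. There RPL15 begins before its window, at 18271391, and RPL37 past its window, at 5116645. Among the 28 chosen genes, 22 had an entry, with 28 windows, and 13 of these (46.4%) held a run of at least 8 pyrimidines on the gene's strand. The share over all 32851 windows in the table was 24.2%. The letters CCGGAAG, a sequence bound by ETS-family factors, lay on either strand of the 300 bases around the start (250 before and 50 after) in 8 of the 28 windows (28.6%) and in 8.86% of all windows. These matches are descriptions of the sequence and show no binding.

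Most ribosomal protein symbols had few counts. Of the 86 symbols, 18 had no count in any library (9 RPL and 9 RPS), and 40 had a sum of 1 to 15 (26 RPL and 14 RPS). A count of 0 in 1 library allows up to 4.56 to 5.36 CPM (3 counts, covering counting error only). The cardiomyocyte markers TNNI3, MYL2, MYL3 and PLN were also at 0 in all libraries, so a low row need not mean little RNA in the cells. Why these rows were low was not tested. Genes of central function were among the low rows: RPL3, a core protein of the peptidyl transferase centre, had 13 counts in all, RPS6, the classical substrate of S6 kinase, had 10, and RPSA had 8. RPLP1 and RPLP2, which form the flexible stalk on RPLP0, had 3 and 2 counts.

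Just inside the chosen sum, RPL34 had 17 counts (1, 7, 2 and 2 in siN libraries 1 to 4, and 0, 1, 2 and 2 in siHoxa5 libraries 1 to 4), and RPS2, which lines the mRNA entry channel, had 18 (0, 2, 2 and 1 in siN, and 0, 5, 3 and 5 in siHoxa5). Just outside it, RPL30 had 15 (3, 0, 3 and 4 in siN, and 1, 1, 3 and 0 in siHoxa5), and RPS6 had 1, 1, 1 and 0 in siN and 0, 3, 1 and 3 in siHoxa5. RPL34 and RPL30 had more counts in siN and RPS2 and RPS6 more in siHoxa5, all too few for a test.

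Levels also spread widely among the chosen genes, although nearly all of their proteins are present in equal numbers in a ribosome. Per kilobase of coding length, the siN mean among RPL genes ran from 7.35 CPM per kb for RPL5 to 11623 for RPLP0, with a median of 870. Among RPS genes it ran from 2.20 for RPS2 to 15752 for RPS27, with a median of 349. Ribosomal protein genes have many processed pseudogenes, and no source used here says how reads that match several genes were counted. In the GENCODE M21 annotation (GRCm38), a median of 45.9% of the 50-base stretches of the 28 genes' transcripts also occurred in transcripts of other genes (range 2.96% to 98.6%). The 54 other matched symbols had a median of 42.0%, and across 82 symbols this share and the total count had a Spearman's rho of 0.17. These shares were taken over a single transcript per gene and do not show how reads were counted. Whether shared sequence bears on the low counts was not tested, and levels of genes with shared sequence are uncertain.

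**Figure D1:**
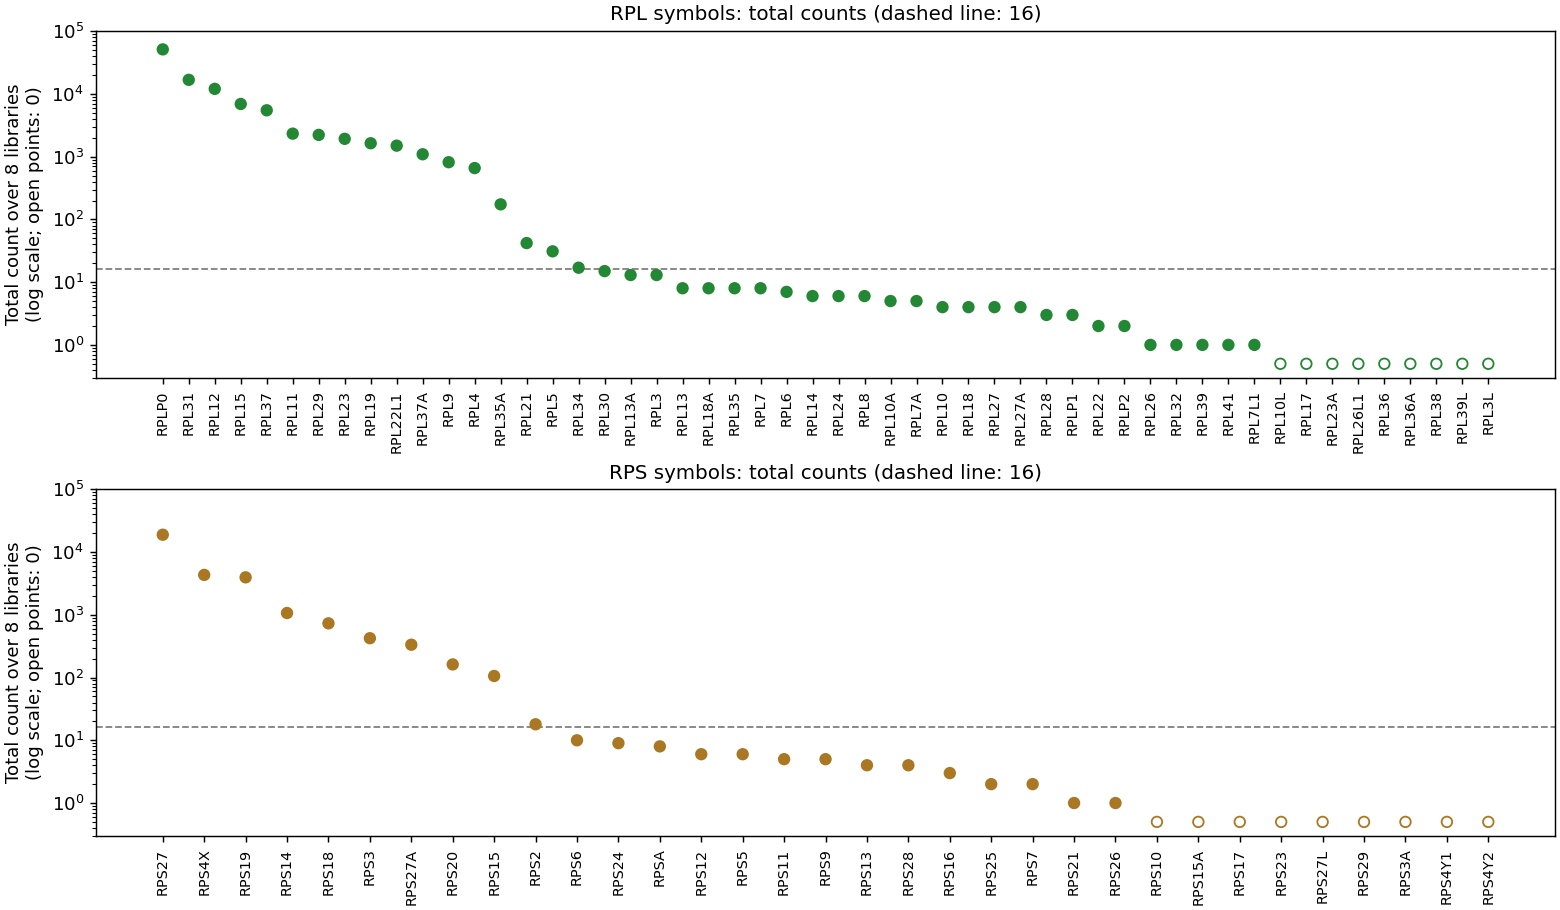
Total counts over all 8 libraries for the RPL and RPS symbols (1 gene is left out), on a log axis, with the sum of 16 as a dashed line and open points for symbols at 0. RPLP0, RPS27 and RPL31 lie at the top, and 18 symbols have no count.

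In siHoxa5, 6 of the 24 ribosomal protein genes that passed the filter on low counts were lower and 0 were higher. All 6 encode large-subunit proteins: RPLP0, RPL31, RPL15, RPL37, RPL29 and RPL4. The 4 genes that did not pass the filter were RPL21, RPL5, RPL34 and RPS2, with 42, 31, 17 and 18 counts. The decreases of the 6 were small, from 0.18 to 0.43 on the log2 scale. The test was edgeR's quasi-likelihood test, with Benjamini-Hochberg adjustment over 3020 genes and a threshold of 0.05. By the same test, 3.38% of all tested genes were lower and 3.74% were higher. Of the 24 genes, 20 had a log2 fold change below 0, against 50.6% of all tested genes, and 13 had an unadjusted p under 0.05 with a lower level (8 RPL and 5 RPS), against 10.3% of all. RPL4's mean CPM of 132 was the lowest of the 6. Over tested genes of at least that mean, 6.52% of 1197 were lower. That set holds 19 of the ribosomal protein genes. It includes the 6 by construction, since its bound was taken from them.

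RPLP0, which anchors the stalk that recruits elongation factors, had the highest CPM of them (for single genes, CPM are scaled by TMM factors). It lies at chr5:115559467-115563727 on the plus strand (GRCm38). Its level was 11490, 10837, 11012 and 10874 CPM in siN libraries 1 to 4, and 8737, 8662, 10203 and 10817 CPM in siHoxa5 libraries 1 to 4. The groups did not overlap, but siHoxa5 library 4 lay just under the lowest siN library, and siHoxa5 libraries 1 and 2 were the lowest. The mean fell from 11053 ± 301 to 9605 ± 1075 CPM (SD, 4 libraries per group), or -0.20 on the log2 scale with a standard error of 0.05 (adjusted p = 0.00607 by edgeR).

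RPL31, which lies beside the exit of the peptide tunnel, had the smallest p among the 24. It lies at chr1:39367842-39371911 on the plus strand. Its level was 3650, 3567, 3603 and 3785 CPM in siN and 3091, 2819, 3115 and 3376 CPM in siHoxa5. Every siHoxa5 library lay below every siN library, which lay close together. The mean fell from 3651 ± 95.7 to 3100 ± 228 CPM (SD, 4 libraries per group), or -0.24 on the log2 scale with a standard error of 0.05 (adjusted p = 0.000231 by edgeR).

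RPL37, a zinc-binding protein of the large subunit, was at 1154, 1135, 1193 and 1266 CPM in siN and 1148, 882, 1021 and 1012 CPM in siHoxa5. It lies at chr15:5116645-5119140 on the plus strand, and only siHoxa5 library 1 reached the siN range. The log2 difference was -0.22 with a standard error of 0.06 (adjusted p = 0.0108 by edgeR), and the call was lost without siN library 4 (adjusted p = 0.0918) or siHoxa5 library 2 (0.127). It was also lost with DESeq2 (adjusted p = 0.0641) and without siHoxa5 libraries 2 and 4 (log2 fold change -0.13, adjusted p = 0.270 by edgeR).

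RPL15, a core protein of the large subunit, was at 1544, 1459, 1415 and 1498 CPM in siN and 1334, 1090, 1312 and 1481 CPM in siHoxa5. It lies at chr14:18267823-18271391 on the minus strand. Its siHoxa5 library 4 lay inside the siN range and the other 3 below it, and the log2 difference was -0.18 with a standard error of 0.06 (adjusted p = 0.0435 by edgeR). The call was lost without any 1 siN library or without siHoxa5 library 2 or 3, with adjusted p from 0.0606 to 0.339. Without siHoxa5 library 2 the log2 fold change itself was -0.11. The call was also lost with limma-voom (adjusted p = 0.0587), with DESeq2 (0.171), with no filter (0.144) or a sum of at least 16 (0.106), and without siHoxa5 libraries 2 and 4 (0.0824).

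RPL29, also known as a heparin-binding protein, was at 444, 529, 408 and 579 CPM in siN and 446, 347, 383 and 434 CPM in siHoxa5. The groups overlapped, with siHoxa5 libraries 2 and 3 below all siN libraries, and the log2 difference was -0.28 with a standard error of 0.09 (adjusted p = 0.0323 by edgeR). It lies at chr9:106429454-106431568 on the plus strand. The call was lost without siN library 2 or 4 or siHoxa5 library 2 or 3, with adjusted p from 0.126 to 0.262. It was also lost with a filter of a sum of at least 16 (0.0607), with limma-voom (0.0645), with DESeq2 (0.137) and without siHoxa5 libraries 2 and 4 (0.146).

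RPL4, at chr9:64173375-64178666 on the plus strand, encodes a protein whose long extension lines the peptide tunnel, and had the largest decrease of the tested RPL genes. It was at 168, 144, 124 and 168 CPM in siN and 121, 91.6, 91.7 and 147 CPM in siHoxa5, a log2 difference of -0.43 with a standard error of 0.14 (adjusted p = 0.0467 by edgeR). Its siHoxa5 libraries 1 to 3 lay below the siN range and library 4 inside it. The call was lost without siN library 1, 2 or 4 or siHoxa5 library 2 or 3, with adjusted p from 0.0737 to 0.212. It was also lost without siHoxa5 libraries 2 and 4 (0.0536), with limma-voom (0.0581), with DESeq2 (0.156), with no filter (0.106) and with a sum of at least 16 (0.0789).

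**Figure D2:**
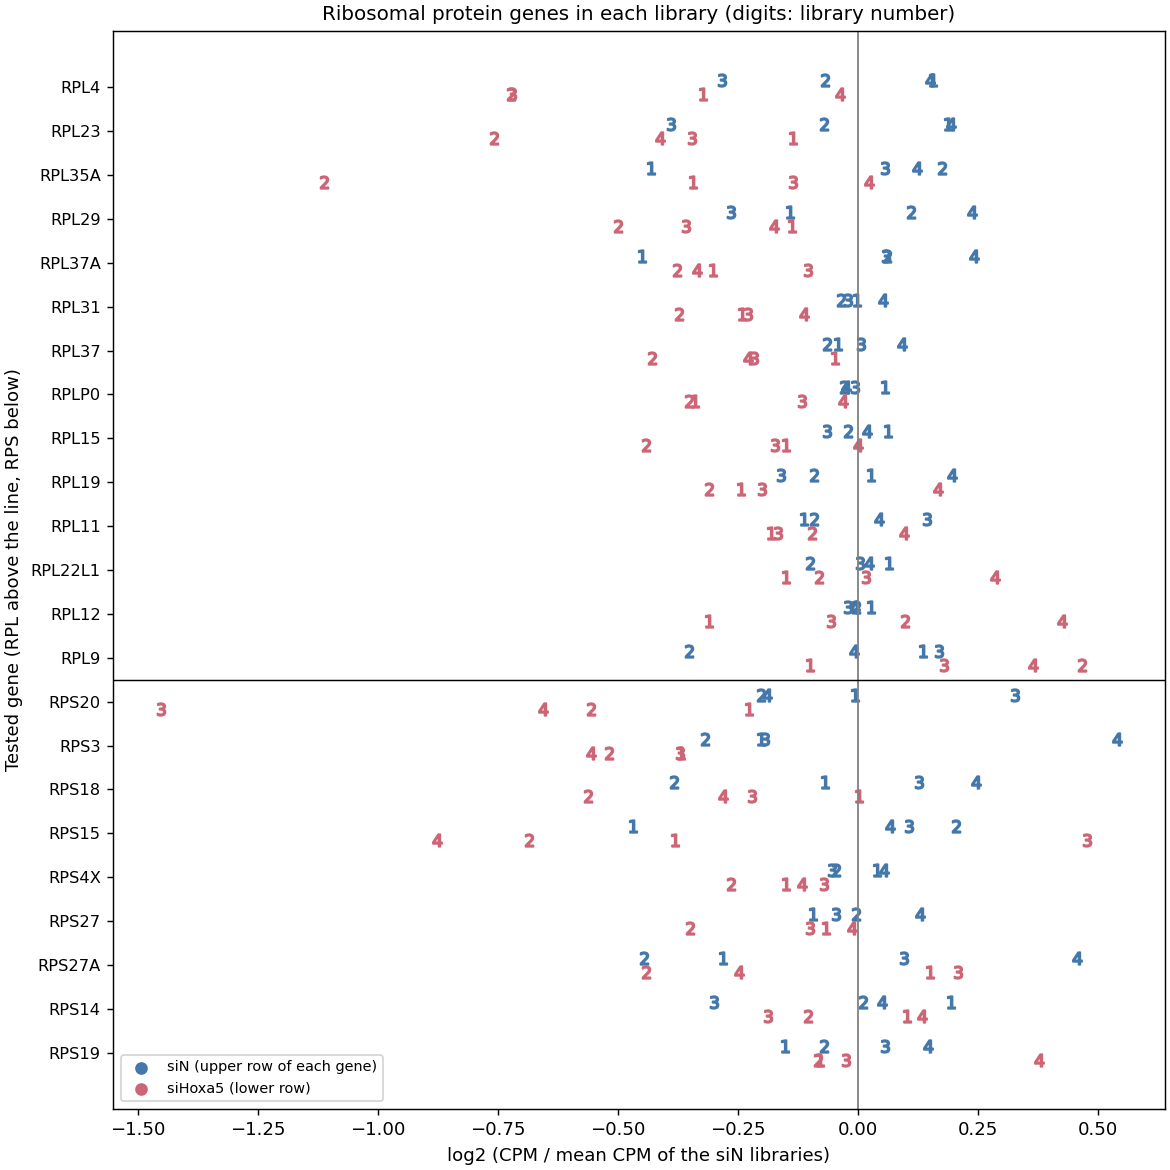
Level of 23 of the 24 tested genes in each library, as log2 of its CPM over the mean of the siN libraries, with digits giving the library number, siN in the upper and siHoxa5 in the lower row of each gene. RPLP0, RPL31, RPS4X, RPS3 and RPS20 separate the groups, while RPL12 has siHoxa5 libraries on both sides of all siN libraries.

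The other 8 tested RPL genes did not pass the threshold. RPL23, which can bind MDM2 when free of the ribosome, had a log2 fold change of -0.39 (adjusted p = 0.0586 by edgeR), and passed without siN library 3 (adjusted p = 0.000237) or without siHoxa5 library 1 (2.0e-05) or 4 (0.00228). It also passed with no filter, with limma-voom, with a replicate block, and with that block after a trend over length and GC content was removed. Its level was 498, 416, 334 and 500 CPM in siN and 398, 259, 344 and 328 CPM in siHoxa5, with overlap. RPL35A (-0.32), RPL37A (-0.27), RPL19 (-0.14) and RPL11 (-0.08) also had log2 fold changes below 0, and RPL37A passed only without siN library 1 (adjusted p = 0.0316). RPL35A was at -0.15 without siHoxa5 library 2, and RPL19 at -0.07 without siN library 4. RPL22L1, the paralog of RPL22, was at 314, 280, 301 and 305 CPM in siN and 271, 284, 304 and 366 CPM in siHoxa5, a log2 fold change of 0.02. RPL22 itself had 2 counts. RPL9 had the highest log2 fold change of the RPL genes, 0.24 with a standard error of 0.13 (adjusted p = 0.288 by edgeR), with 167, 119, 171 and 151 CPM in siN and 142, 210, 172 and 196 CPM in siHoxa5. The groups of RPL22L1 and of RPL9 overlapped. RPL9 was at 0.14 without siN library 2 and at 0.05 without siHoxa5 libraries 2 and 4.

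RPL12, at the base of the stalk beside RPLP0, differed in spread between the groups. It was at 2438, 2386, 2356 and 2382 CPM in siN, and at 1929, 2559, 2300 and 3209 CPM in siHoxa5. The siN libraries lay close together, with 2 siHoxa5 libraries above and 2 below all of them. The mean went from 2390 ± 34.4 to 2499 ± 539 CPM (SD, 4 libraries per group), or 0.06 on the log2 scale with a standard error of 0.15 (adjusted p = 0.885 by edgeR). Without siHoxa5 library 1 the gene was called higher (log2 fold change 0.17, adjusted p = 0.0194 by edgeR), and without siHoxa5 libraries 2 and 4 it was called lower (-0.17, adjusted p = 0.0132 by edgeR), so its direction depended on which libraries entered.

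None of the 10 tested RPS genes passed the threshold in either direction, while 5 had an unadjusted p under 0.05, all lower, in the same edgeR test. DESeq2 also called 0 RPS genes. RPS27, a zinc-finger protein of the small subunit, was at 3721, 3961, 3850 and 4346 CPM in siN and 3793, 3117, 3707 and 3936 CPM in siHoxa5. The groups overlapped, with a log2 difference of -0.13 with a standard error of 0.05 (adjusted p = 0.155 by edgeR). It passed without siHoxa5 library 1 (adjusted p = 0.0389) or 4 (adjusted p = 0.00762). Its paralog RPS27L had no count. RPS4X, encoded on the X chromosome, was at 941, 886, 882 and 950 CPM in siN and 825, 761, 872 and 844 CPM in siHoxa5. Its groups did not overlap, with a log2 difference of -0.15 with a standard error of 0.06 (adjusted p = 0.162 by edgeR).

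RPS19, which is needed to mature the small subunit and is mutated in Diamond-Blackfan anaemia, was at 705, 747, 815 and 867 CPM in siN and 743, 740, 770 and 1018 CPM in siHoxa5. It was the only tested RPS gene with a value above 0, 0.06 (adjusted p = 0.749 by edgeR), and only siHoxa5 library 4 exceeded the siN range. RPS20 had the lowest value among the RPS genes. It was at 39.4, 34.4, 49.7 and 34.7 CPM in siN and 33.8, 26.9, 14.5 and 25.1 CPM in siHoxa5, a log2 difference of -0.66 with a standard error of 0.28 (adjusted p = 0.140 by edgeR). Its groups did not overlap, but at this level the error was large.

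Among other RPS genes, log2 fold changes were -0.45 (RPS3, which lies at the mRNA entry channel), -0.25 (RPS18), -0.24 (RPS15), -0.05 (RPS27A, which is made as a fusion with ubiquitin) and -0.01 (RPS14). RPS3 was at 85.0, 78.3, 85.4 and 142 CPM in siN and 75.7, 68.2, 75.6 and 66.4 CPM in siHoxa5. All siHoxa5 libraries lay below all siN libraries, and siN library 4 was far above the rest, without which the log2 fold change was -0.21. RPS18 was at -0.16 without siHoxa5 library 2 and at -0.10 without siHoxa5 libraries 2 and 4. RPS15 ranged from -0.62 without siHoxa5 library 3 to -0.09 without siHoxa5 library 4, and was at 0.12 without siHoxa5 libraries 2 and 4.

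**Figure D3:**
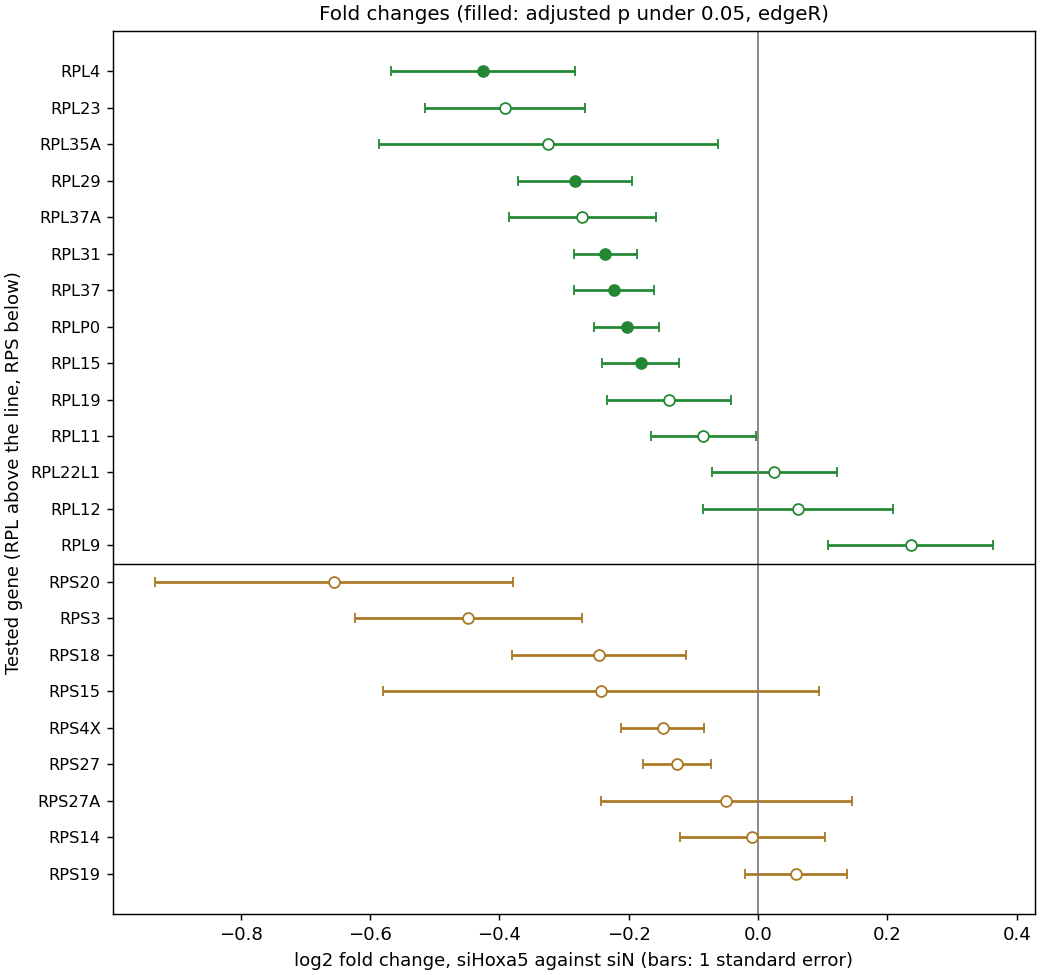
Log2 fold change of 23 of the 24 tested RPL and RPS genes, siHoxa5 against siN, with bars of 1 standard error and filled points past the threshold. The 6 genes past the threshold are all RPL genes, and both subunits centre below 0.

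The median log2 fold change was -0.21 over the 14 tested RPL genes and -0.15 over the 10 tested RPS genes, while the median over all tested genes was -0.00. Without siHoxa5 libraries 2 and 4 the RPL median was -0.21 and the RPS median -0.07. The share called lower was 42.9% of RPL genes and 0 of 10 RPS genes, but whether the subunits differ was not tested. Their ranges overlapped, at -0.43 to 0.24 for RPL and -0.66 to 0.06 for RPS. The groups of CPM did not overlap for 5 genes, all lower in siHoxa5 (RPLP0, RPL31, RPS4X, RPS3 and RPS20), against 5.76% of all tested genes that were lower and 6.23% that were higher in this way.

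The siHoxa5 libraries did not contribute equally. Measured from the siN mean of each gene, the median log2 difference of the RPL genes was -0.21, -0.36, -0.17 and -0.01 in siHoxa5 libraries 1 to 4, and that of the RPS genes was -0.07, -0.37, -0.09 and -0.21. Library 2 was the lowest of all 8 libraries for 13 of the 24 genes (9 RPL and 4 RPS). Among the siN libraries, library 4 was the highest of all 8 for 12 of them (6 RPL and 6 RPS). The median coefficient of variation of RPL genes was 9.72% in siN and 13.1% in siHoxa5, and that of RPS genes was 15.9% and 13.3%, beside 13.0% and 14.8% over all tested genes.

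As a share of each library's counts, the 17 RPL genes took 2.21% to 2.31% in siN (mean 2.26% ± 0.0487, SD, n = 4) and 1.80% to 2.18% in siHoxa5 (1.97% ± 0.169, SD, n = 4). The groups did not overlap. RPLP0 alone gave about as many counts as the rest, and without it the RPL share was 1.11% to 1.19% in siN and 0.944% to 1.13% in siHoxa5, so those groups overlapped. The 11 RPS genes took 0.693% to 0.794% in siN (0.722% ± 0.0485, SD, n = 4) and 0.581% to 0.690% in siHoxa5 (0.658% ± 0.0524, SD, n = 4), also without overlap, though the highest siHoxa5 and lowest siN values nearly met and siHoxa5 library 2 lay far below the rest. The difference in the RPS share, -0.0634 percentage points, was -0.0397 without siHoxa5 libraries 2 and 4, -0.0375 without library 2 alone and -0.0393 without siN library 4. That in the RPL share went from -0.283 to -0.304 without siHoxa5 libraries 2 and 4. In bulk RNA, fewer cells of a type and less RNA per cell cannot be told apart.

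The 40 symbols with a sum of 1 to 15 went the other way. They had 12, 17, 20 and 18 counts in siN libraries 1 to 4 and 12, 36, 41 and 49 counts in siHoxa5 libraries 1 to 4. Pooled, this was 25.9 counts per 1000000 in siN and 58.2 in siHoxa5, with siHoxa5 library 1 inside the siN range of counts. RPL3 contributed 2 counts in siN and 11 in siHoxa5. Over all rows of the table with such a sum, the pooled level was 2502 counts per 1000000 in siN and 2991 in siHoxa5. No test was made on these rows.

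**Figure D4:**
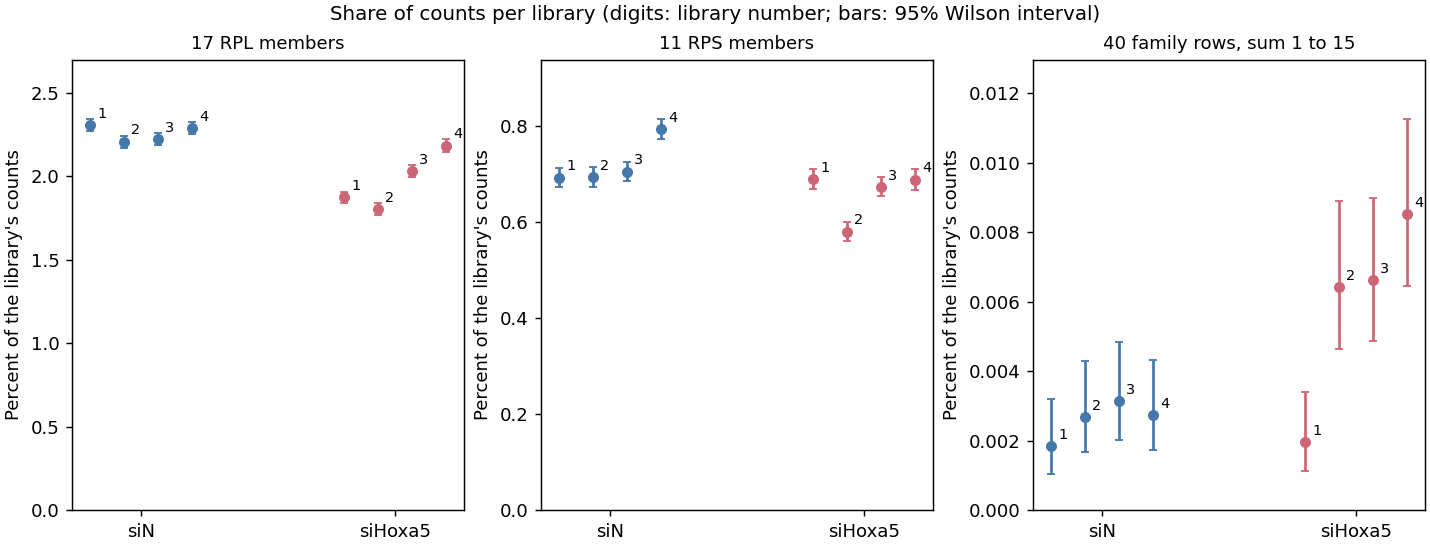
Percent of each library's counts taken by the 17 RPL genes, the 11 RPS genes and the 40 symbols with a sum of 1 to 15, with 1 point per library and bars for the 95% Wilson interval, which covers counting error only. For RPL and RPS genes every siHoxa5 point lies below every siN point, narrowly for RPS, and for the low rows siHoxa5 libraries 2 to 4 lie above all siN libraries.

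Of the lists of related genes, 45 genes were tested and 4 were called. RACK1, a scaffold on the small subunit, had a log2 fold change of -0.04. Of 80 mitochondrial ribosomal protein symbols, 14 had a count, 90 counts in all, and 0 passed the filter. Ribosome biogenesis had 11 of 66 genes tested, with 1 lower, 0 higher and a median of -0.07. The 1 was NOP10, a component of the box H/ACA particles that guide pseudouridylation, which fell from 64.8 ± 9.25 to 40.6 ± 7.48 CPM (SD, 4 libraries per group), a log2 difference of -0.67 with a standard error of 0.22 (adjusted p = 0.0334 by edgeR). Its call was lost without siN library 1, 3 or 4 or siHoxa5 library 1, 2 or 4 (adjusted p from 0.0571 to 0.117). It was also lost with DESeq2, with no filter or a sum of at least 16, and without siHoxa5 libraries 2 and 4. The same held with the length and GC trend removed, without and with a replicate block. The most abundant genes of that list, the nucleolar proteins NCL and NOP58, were at -0.07 and 0.08.

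Of RNA polymerase I and its factors, 2 of 13 genes were tested. POLR1D, a subunit shared by RNA polymerases I and III, fell from 147 ± 13.6 to 106 ± 14.7 CPM (SD, 4 libraries per group), a log2 difference of -0.47 with a standard error of 0.14 (adjusted p = 0.0254 by edgeR). Its call was lost without siN library 1, 2 or 4 or siHoxa5 library 3 or 4 (adjusted p from 0.0602 to 0.102). It was also lost with DESeq2, with no filter and without siHoxa5 libraries 2 and 4. The same held with the length and GC trend removed, without and with a replicate block. UBTF, a ribosomal DNA binding factor, was at -0.05. Among regulators of TOP mRNAs, 10 of 18 genes were tested, with 1 higher, 0 lower and a median of 0.07. RPS6KB1, the S6 kinase downstream of mTORC1, rose from 583 ± 22.9 to 684 ± 29.3 CPM (SD, 4 libraries per group). The log2 difference was 0.23 with a standard error of 0.07 (adjusted p = 0.0303 by edgeR). This call was lost without siN library 2, 3 or 4 or siHoxa5 library 1 or 2 (adjusted p from 0.0568 to 0.105). It was also lost with DESeq2, with no filter, without siHoxa5 libraries 2 and 4, and with the length and GC trend removed, without and with a replicate block. CNBP and TIAL1 were at 0.04 and 0.06.

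Of 20 listed mRNAs of other function known to carry a TOP motif, 15 were tested, with 1 lower, 0 higher and a median log2 fold change of 0.00. The 1 was PABPC1, the poly(A)-binding protein, which fell from 14941 ± 211 to 12914 ± 381 CPM (SD, 4 libraries per group), a log2 difference of -0.21 with a standard error of 0.04 (adjusted p = 0.000115 by edgeR), a call kept under all alternatives tried. NAP1L1, a histone chaperone, was at 0.00. In ribosome quality control and the response to free ribosomal proteins, 6 of 12 genes were tested and 0 were called. HUWE1 and TRIP12, both ubiquitin ligases, were at 0.09 and 0.06, and the median of the list was 0.07.

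Transcript length moved with the fold change. Over 2897 tested genes with a known length, the Spearman's rho between the log2 fold change and transcript length was 0.20. Over the 24 ribosomal protein genes alone it was -0.26, in the opposite direction. These lengths were of a single transcript per gene. RPS20, with the lowest log2 fold change of the 24 (-0.66), also had the longest such transcript. Its length was 3706 nt for a coding length of 357 nt, and the rho without this gene was not computed. Among the 726 tested genes with the shortest transcripts (345 to 2562 nt), 5.65% were lower, against 1.52% of the 724 with the longest. Those 726 included 23 of the 24 ribosomal protein genes, whose median transcript was 812 nt against 3863 nt over all. Of the 703 others among them, 4.98% were lower. With the trend over length and GC content removed, the RPL median was -0.12 and the RPS median -0.03, and 0 of the 24 genes passed the threshold, the 6 included, against 2.72% of all genes called lower in that fit. The genes share their libraries, and the correlation is a description.

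RPL31 and RPLP0 kept their calls under most of the 20 alternatives. With DESeq2 in place of edgeR, 2 RPL genes were called lower (RPL31 and RPLP0), against 1.95% of all genes. Without siHoxa5 libraries 2 and 4, 3 RPL genes were called lower (RPL31, RPLP0 and RPL12), against 2.33% of all genes, with edgeR adjusted p = 1.7e-05 for RPL31 and 1.6e-05 for RPLP0. RPLP0 lost its call without siN library 1 (adjusted p = 0.0724 by edgeR) and with the length and GC trend removed (log2 difference -0.10, adjusted p = 0.280 by edgeR). It also lost its call with that trend removed and a replicate block. Of the alternatives tried, RPL31 lost its call only with the length and GC trend removed and no replicate block (log2 difference -0.14, adjusted p = 0.0670 by edgeR).

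**Figure D5:**
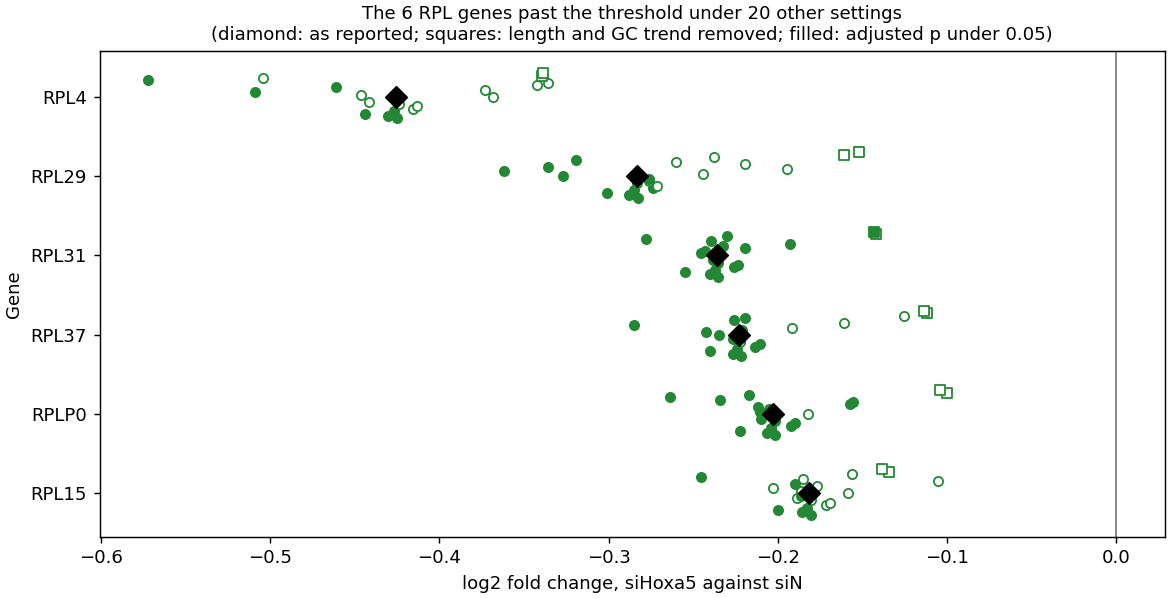
Log2 fold change of the 6 RPL genes past the threshold, as reported (diamond) and under 20 other settings, filled where the adjusted p was under 0.05 and square where the length and GC trend was removed. All values lie below 0, while RPL4, RPL15 and RPL29 often lose the threshold.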

How the data were processed

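Poly-A-selected RNA of 8 libraries (4 siN, 4 siHoxa5) was used. The authors deposited estimated counts by gene symbol, without normalization, all whole apart from 4 rows. The submitters' processing notes name STAR 2.6.1b, FastQC 0.11.8, R 3.5.3 and HTSeq, and the build mm10. No source used here gives the annotation, the strand or how shared reads were handled, so reads of overlapping genes and pseudogenes cannot be told apart. Symbols are spelled as human genes are. They were matched to GENCODE M21 without regard to case (82 of the 86 ribosomal protein symbols, all 28 chosen genes).

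Counts were rounded and tested with edgeR 4.0.16 (quasi-likelihood, robust, TMM scaling, limma 3.58.1, R 4.3.3) over all 8 libraries, with group as the only term. filterByExpr (minimum count 10, minimum total 15) kept 3020 genes with 98.6% of the counts. P-values were adjusted by Benjamini-Hochberg over these genes, with a threshold of 0.05. CPM use the whole library times its TMM factor. Totals of 560190 to 658192 counts gave a median standard error of 0.17 (log2). Pyrimidine runs were searched on the gene's strand and CCGGAAG on both, in RefSeq windows of GRCm38.p6.

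The members and gene lists were chosen with earlier results of these data known. Named genes are those past the threshold, the 4 of highest CPM per subunit, RPLP0 to RPLP2 and RPSA, paralog pairs, genes nearest the sum of 16, the largest rise and fall per subunit, and, in other lists, those past the threshold and the 2 of highest CPM. Of the genes this rule selects, 1 is not reported here by name. RPL12's calls under alternatives, RPL22's paralog and the values of RPS3 were singled out with their values known. Alternatives covered scaling, filter, DESeq2 1.42.0, limma-voom, a replicate block, each library left out, and siHoxa5 libraries 2 and 4 left out. Libraries 2 and 4 of siHoxa5 were picked by their place on the first principal component of these data. A trend over transcript length and GC content was also removed, alone and, chosen after seeing the data, with a replicate block. On counts simulated for this comparison (3029 genes tested), the test recovered 38.6% at a 1.25-fold change, 75.3% at 1.5-fold and 98.6% at 2-fold, with 0 false among 146 calls. The simulated counts had the same spread in both groups and no trend over transcript length, unlike the data. They therefore do not show how many calls in the data are false.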

Additional observations from a re-analysis of the deposited data

Results flagged for a closer look

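In 4 of 54 sets of 4 libraries examined, 1 library lay far from the other 3, where chance gives about 1 in 20. The sets reuse the same 8 libraries and are not independent, so whether 4 exceeds chance was not tested. RPS19 in siHoxa5 had 1018 CPM in library 4 and at most 770 CPM in the others. RPS3 in siN had 142 CPM in library 4 and at most 85.4 CPM in the others. The share of counts taken by RPS genes in siN was 0.794% in library 4 (95% Wilson interval 0.773% to 0.816%) and at most 0.706% in the others. The same share in siHoxa5 was 0.581% in library 2 (95% Wilson interval 0.561% to 0.601%) and at least 0.674% in the others.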

How the results depend on the processing

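Over 37 genes and 20 alternatives, 606 of 740 gene values kept their direction and side of the threshold, 77 lost a call, 11 gained one and 46 changed sign. The medians of RPL and RPS genes stayed below 0 under all of them (-0.25 to -0.12 and -0.17 to -0.03). The count of lower RPL genes, 6, became 3 with a filter of a sum of at least 16, 2 with DESeq2, 3 without siHoxa5 libraries 2 and 4, 0 with the length and GC trend removed and 2 with that trend and a replicate block. Leaving out 1 library gave 2 to 7 lower RPL genes, 0 to 1 lower RPS genes (RPS27, without siHoxa5 library 1 or 4) and 0 to 1 higher genes (RPL12, without siHoxa5 library 1). The count was 2 without siN library 4 or siHoxa5 library 2 and 3 without siN library 2 or siHoxa5 library 3. The replicate block gave 7 lower RPL genes, RPL23 being the one added. Deviations of same-numbered libraries had correlations of 0.07, -0.01, -0.02 and 0.04, which cannot show whether they were prepared together. The labels do not say this either, and here the numbers serve to name libraries. The RPL share difference of -0.28 percentage points became -0.13 without the 10 rows of highest count, RPLP0 among them. The 4 calls in related lists became 1 with no filter, 1 with DESeq2, 2 without siHoxa5 libraries 2 and 4, 1 with the trend removed, 1 with trend and replicate block, and 1 to 3 with 1 library left out.

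None of the genes whose sign changed was called as reported, and RPS15 (-0.24) was the farthest of them from 0. Without siHoxa5 libraries 2 and 4, the log2 fold change was -0.171 for RPL12, -0.0586 for RPL22L1, 0.119 for RPS15, -0.0462 for RPS19, 0.182 for RPS27A, -0.0260 for CNBP and -0.0015 for NAP1L1. With the trend removed, without and with the replicate block, it was 0.0393 and 0.0401 for RPL11, 0.111 and 0.116 for RPS14, 0.0135 and 0.0120 for RPS27, 0.0663 and 0.0667 for RPS27A, 0.0587 and 0.0598 for RACK1, -0.0214 and -0.0215 for NAP1L1, -0.00049 and -0.00039 for HUWE1, and -0.0189 and -0.0196 for TRIP12. RPS14 was at 0.00076 with no filter and 0.0032 with a sum of at least 16. NAP1L1 was at -9.5e-05 with upper-quartile factors and -0.0136 with library totals. With 1 library left out, values ranged from -0.0803 to 0.170 for RPL12, -0.0687 to 0.0834 for RPL22L1, -0.0966 to 0.0639 for RPS14, -0.0606 to 0.11 for RPS19, -0.168 to 0.142 for RPS27A, -0.0861 to 0.0210 for RACK1, -0.202 to 0.00427 for NCL, -0.00761 to 0.0791 for CNBP and -0.0114 to 0.0389 for NAP1L1. The cause was not tested. The alternatives that add pseudogene rows to their parents could not be run, since the table has 0 such rows. Depth limits the genes of lowest count, such as RPS20.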
